A study of Homo sapiens with 12 samples.

Results

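The genes described here are 37 symbols that belong to the cellular response to low oxygen and to glycolysis. They comprise 2 subunits of the hypoxia-inducible factor (HIF), 3 prolyl hydroxylases that mark HIF for destruction, 12 HIF targets outside glycolysis, 5 glucose transporters and regulators, and 15 glycolytic enzymes. The members were chosen by symbol, and 36 of the 37 were found among the 23292 symbols of the deposited tables. CA9, which encodes a cell surface carbonic anhydrase induced in hypoxia, was not among them. RNA was sequenced from HEK293T cells, an established human embryonic kidney line that the growth protocol calls HEK293, after 6 h with DMSO vehicle or with 10 µM of AA263, AA263yne or AA263-5, 3 related compounds studied as activators of the ATF6 arm of the unfolded protein response. Each of the 4 groups held 3 samples, 12 in all, and all groups carried the same wild-type cells in DMEM with serum. The deposited tables give 1 mean signal per gene over all 12 samples, of which 9 had received a compound. The values below are therefore the authors' means over vehicle and treated cells together, with no spread between samples, and they hold no difference between a compound and vehicle.

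HIF is a transcription factor made of an oxygen-sensitive alpha subunit (HIF1A or EPAS1) and a stable partner, ARNT. When oxygen is present the prolyl hydroxylases EGLN1, EGLN2 and EGLN3 hydroxylate the alpha subunit, the VHL ubiquitin ligase binds it, and the proteasome removes it, so that much of HIF's activity is set at the level of protein. HIF binds a short DNA core in its target genes, among them glucose transporters and most enzymes that turn glucose into lactate. Many cultured lines, including this one, run glycolysis at a high rate in the presence of oxygen.

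Marker genes were looked up for the labelled line, and its identity was not tested. All 7 genes chosen as HEK293T markers had a mean signal of at least 10, a level that 15638 of the 23292 symbols (67.1%) reached. They ran from 27.7 for PAX2, at percentile 40.8 of all symbols, to 18797 for VIM, at percentile 99.0. Of 6 markers of other cell types, 4 stood at or below 1.30 and INS was not found, while COL1A1, a fibroblast collagen, stood at 397 (percentile 62.4). The deposited means summed to 36.6 M over all symbols, and 15 mitochondrially encoded genes held 11.9% of that sum.

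As a group the glycolytic enzymes stood far above the other members. A mean signal of at least 10 was found for 35 of the 36, the exception being EGLN2, against 67.1% of all symbols. To compare genes of different length, each mean was divided by the length of the gene's MANE Select transcript, giving a signal per kilobase. On that scale the median member stood at 422, against 206 for the 14078 symbols that had a length and a mean of at least 10, and 23 of the 36 members lay above that second value. The 15 glycolytic enzymes had a median of 3121 per kilobase. The HIF targets outside glycolysis had a median of 193 and the transporters and regulators of 67.4, but the second is the value of PDK1 and rests on its long transcript. Per kilobase of coding sequence the order of these groups turned, with medians of 603 and 725. These are descriptions of a chosen list, and no test was made.

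**Figure D1:**
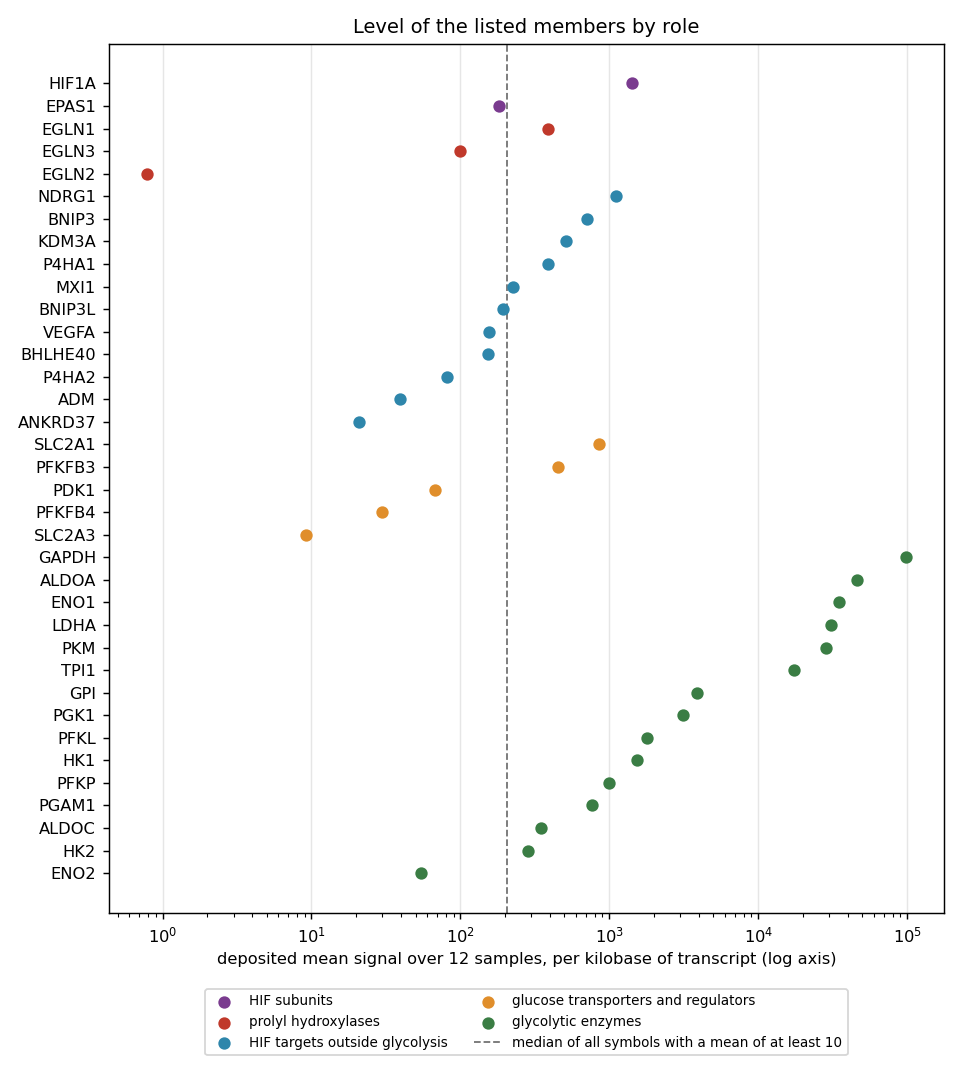
Signal per kilobase of transcript (x axis, log scale) of the 36 listed members, grouped by role and ordered within each role; each point is the authors' mean over 12 samples, so there are no error bars, and the dashed line is the median of symbols with a mean of at least 10 (206). The enzymes run from ENO2 at 54.8 to GAPDH at 98910, and EGLN2 stands alone at 0.783.

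As a share of all deposited signal the 36 members held 1.36%, and the enzymes made up 94.9% of that. The 5 members with the highest means, GAPDH, LDHA, ALDOA, PKM and ENO1, held 80.5% of the members' sum, and GAPDH alone held 25.6%. GAPDH, the dehydrogenase that forms the first high-energy intermediate of the pathway and a common reference transcript, ranked 18 of all symbols by its mean. By its signal per kilobase it ranked 10 of the 14078 symbols that had a length and a mean of at least 10. Symbols with no matched length have no place in that second ranking. The 6 members that fell within the top 1% of all symbols (233 symbols, holding 35.9% of the signal) were these 5 and TPI1.

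Between the HIF alpha subunits, HIF1A dominated. Its mean was 5613, or 1422 per kilobase, at percentile 86.3 of the symbols ranked per kilobase. EPAS1 (HIF-2 alpha) had a mean of 937 and 182 per kilobase (percentile 47.4), so that HIF1A stood 7.83-fold above it per kilobase and made up 88.7% of the sum of both. HIF3A, the third alpha subunit, was not found. These values count transcripts and do not measure the protein on which oxygen acts.

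Among the prolyl hydroxylases EGLN1 (PHD2), the main oxygen sensor for HIF1A, had a mean of 1677 and 387 per kilobase. EGLN3 (PHD3), itself a HIF target, had a mean of 270 and 99.7 per kilobase, 3.88-fold below EGLN1 (6.22-fold with no length). EGLN2 (PHD1) was listed at 1.64, or 0.783 per kilobase, the lowest of all members. The value of EGLN2 cannot be read on its own, because a readthrough gene, RAB4B-EGLN2, was listed beside it at a mean of 2915, which is 1773 times higher. Per kilobase RAB4B-EGLN2 stood at 1051, so that EGLN1 lay above EGLN2 but at 0.368 times the readthrough gene. The readthrough gene has 12 exons and EGLN2 has 6, and it starts upstream of EGLN2. Its value can therefore hold signal from outside EGLN2 and is not a level of EGLN2 alone. The order of EGLN1 and EGLN2 cannot be read from these values. EGLN2 lies on chromosome 19 (chr19:40798996-40808434, plus strand, GRCh38, GENCODE 44), overlapping RAB4B-EGLN2 (chr19:40778242-40808418), and 30.6% of its exon bases are also exon bases of the readthrough gene. How the authors' counting divided reads between these symbols was not tested. RAB4B-EGLN2 was chosen after its value was seen.

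Of 12 genes listed as HIF partners and regulators, 11 were found and all 11 had a mean of at least 10 (67.1% of all symbols did). ARNT, the stable HIF partner, had a mean of 2760 (586 per kilobase), and VHL, which recognises the hydroxylated alpha subunit, had a mean of 972 (220 per kilobase). The highest mean in this list, 11301, belonged to EP300, a histone acetyltransferase and coactivator of HIF, at 1287 per kilobase, while per kilobase the highest was ELOB, a subunit of the VHL ligase, at 8336. The median of the list was 586 per kilobase, above the members' own median of 422.

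The HIF targets outside glycolysis spread over a wide range. NDRG1, a stress-induced gene with roles in differentiation, was the highest with a mean of 3340 and 1104 per kilobase (percentile 82.8). KDM3A, a histone H3 lysine 9 demethylase, had a mean of 2390 and 512 per kilobase. Among the low members were ADM, the precursor of the vasodilator peptide adrenomedullin, with a mean of 58.9 and 39.5 per kilobase, and ANKRD37, a small ankyrin repeat gene, with a mean of 16.4 and 20.9 per kilobase. VEGFA, the chief angiogenic growth factor, stood between KDM3A and ADM at a mean of 561 and 155 per kilobase (percentile 44.5), below the median of ranked symbols.

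BNIP3 and BNIP3L (NIX) encode related receptors for the removal of mitochondria by autophagy. BNIP3 had a mean of 1094 and 710 per kilobase, and BNIP3L a mean of 667 and 193 per kilobase. The ratio of 3.67 per kilobase in favour of BNIP3 fell to 1.64 without the division by length, since the transcript used for BNIP3 is the shorter (1542 against 3452 bases). GENCODE annotates 44 processed copies or other pseudogenes named after BNIP3 and 65 named after GAPDH, and none of them was among the deposited symbols.

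P4HA1 and P4HA2 are catalytic subunits of the enzyme that hydroxylates prolines in collagen, which is distinct from the EGLN enzymes. P4HA1 had a mean of 1065 and 388 per kilobase, and P4HA2 a mean of 370 and 81.5 per kilobase, a ratio of 4.76 (2.87 with coding length or with no length). P4HA3 added 0.804% of the family's sum. MXI1, an antagonist of MYC that binds DNA with MAX, had a mean of 784 and 226 per kilobase. BHLHE40, a transcriptional repressor of the clock and stress responses, had a mean of 482 and 153 per kilobase.

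A further list held 17 known HIF targets outside the members. All 17 were found and 14 had a mean of at least 10, beside 67.1% of all symbols. Their median was 88.4 per kilobase, below the 193 of the 11 listed member targets. Per kilobase of coding sequence the medians lay closer, at 481 and 603. The highest mean was that of FAM162A, a mitochondrial protein gene, at 2627 (861 per kilobase), and per kilobase the highest was JMJD6, a lysine hydroxylase gene, at 1287. EPO, the erythropoietin gene, had the lowest mean, 2.11 (1.27 per kilobase).

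Glucose enters most cells through SLC2A1 (GLUT1), and this transporter made up 97.2% of the signal per kilobase of the 3 transporters compared, the third being SLC2A4 (GLUT4) at 15.4 per kilobase. SLC2A1 had a mean of 2888 and 854 per kilobase. SLC2A3 (GLUT3), a high-affinity transporter typical of neurons, had a mean of 35.1 and 9.18 per kilobase, 93.0-fold lower. Its near-identical neighbour SLC2A14, named here after its value was seen, was listed at 3.59, and reads shared between the pair could be placed under either symbol.

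PFKFB3 and PFKFB4 make and break fructose-2,6-bisphosphate, the strongest activator of phosphofructokinase. PFKFB3, the form with the highest kinase activity, had a mean of 2039 and 455 per kilobase and made up 88.2% of its 4-gene family, while PFKFB4 had a mean of 104 and 29.7 per kilobase, 15.3-fold lower. PDK1, a kinase that turns off pyruvate dehydrogenase and so keeps pyruvate carbon from acetyl-CoA and the citric acid cycle, had a mean of 949. Its level per kilobase, 67.4, rests on a transcript of 14072 bases. PDK1 made up 12.2% of the 4 PDK genes per kilobase of transcript but 41.7% per kilobase of coding sequence, so its place among them depends on the length used.

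Along glycolysis the summed signal per kilobase differed widely between steps, and glucose transport stood at 0.887% of the GAPDH step (1.59% with coding length and 2.34% with no length). The sum was 878 for the transporters and 1824 for hexokinase, which traps glucose as its phosphate. Glucose-6-phosphate isomerase stood at 3884 and phosphofructokinase, the committed step, at 3539. The next steps stood higher, at 46589 for aldolase, which splits the sugar, 17464 for triosephosphate isomerase and 98993 for the GAPDH step. It was lower again for phosphoglycerate kinase at 3121 and phosphoglycerate mutase at 1398. Enolase stood at 34993, pyruvate kinase at 28595 and lactate dehydrogenase at 54318. Of the 4 steps before aldolase, the highest was glucose-6-phosphate isomerase at 3.92% of the GAPDH step (7.56% with coding length and 12.6% with no length). With coding length the 6 highest steps kept their order, while phosphoglycerate kinase moved from place 9 to place 7 and phosphoglycerate mutase, at 3191, stood above hexokinase, at 2598. With no length pyruvate kinase, at 65910, stood above enolase, at 62344, and phosphoglycerate mutase, at 2431, stood below glucose transport, at 2976.

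**Figure D2:**
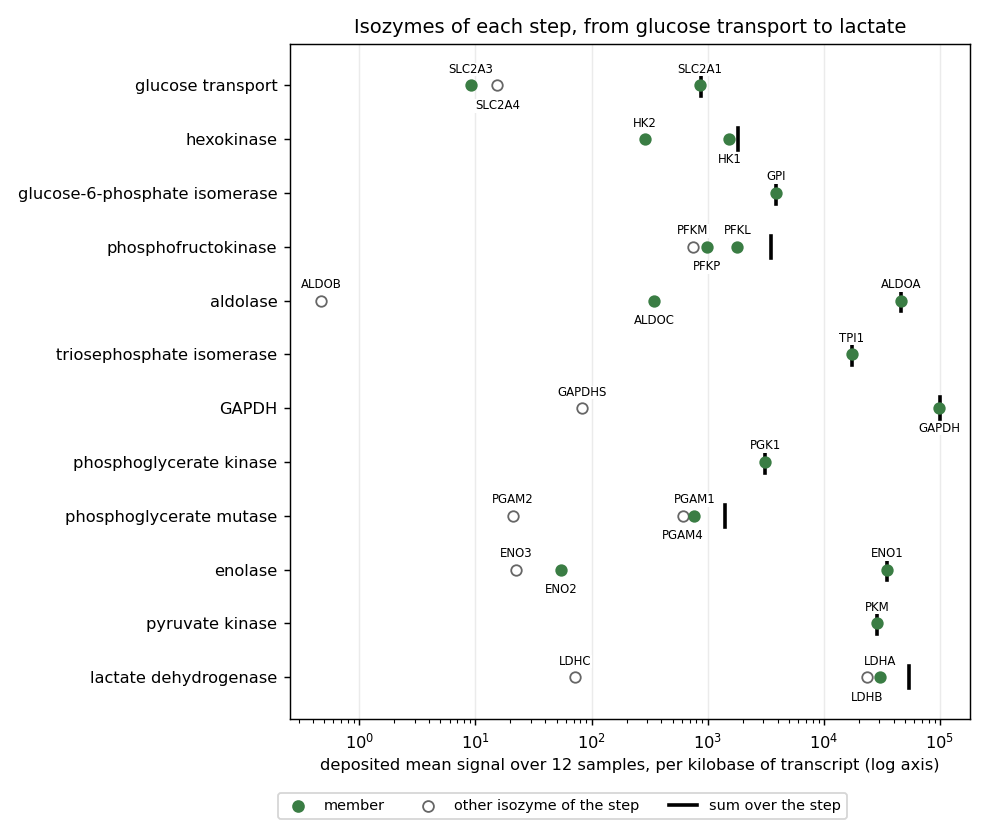
Signal per kilobase of transcript (x axis, log scale) of the isozymes at each of 12 steps from glucose uptake to lactate (y axis, top to bottom); filled points are members, open points other isozymes, and bars the sum over a step. Each point is 1 pooled mean over 12 samples; the sums run from 878 for glucose transport to 98993 for the GAPDH step.

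A member had the highest listed value at each of the 12 steps, though at phosphoglycerate mutase this rests on how reads were divided between PGAM1 and PGAM4, whose sequences are nearly identical. HK1, the housekeeping hexokinase, had a mean of 5539 and 1538 per kilobase, while HK2, the inducible form of muscle and tumours, had a mean of 1608 and 286 per kilobase, a ratio of 5.38 (3.44 with coding length or with no length). The phosphofructokinases were the most evenly divided family among the early steps. PFKL (liver type) had 1802 per kilobase, PFKP (platelet type) 989 and PFKM (muscle type, not a member) 748, or 50.9%, 27.9% and 21.1% of their sum.

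From aldolase on, 1 isozyme held nearly all of the signal at most steps. ALDOA had a mean of 75838 and 46243 per kilobase, which was 134-fold above ALDOC, the brain form (mean 555, 345 per kilobase), and 99.3% of the family. ENO1 had a mean of 62186 and 34916 per kilobase, 637-fold above ENO2, the neuronal enolase (mean 126, 54.8 per kilobase), and 99.8% of the family. GPI, TPI1, PGK1 and PKM were the sole isozymes found at their steps, with means of 16023, 23593, 15019 and 65910. PKM yields both the M1 and M2 forms of pyruvate kinase by splicing, and a value per gene cannot separate them. PKLR, the liver and red cell pyruvate kinase, and PGK2, the testis form of phosphoglycerate kinase, were not found.

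At the last step the signal was shared. LDHA, the subunit that favours formation of lactate, had a mean of 68554 and 30591 per kilobase. LDHB, the heart-type subunit and the highest of the isozymes outside the members, had a mean of 30823 and 23655 per kilobase, so LDHA held 56.3% of the family per kilobase of transcript and 69.0% per kilobase of coding sequence. Of the 22 other isozymes and lactate genes, 18 were found and 15 had a mean of at least 10, beside 67.1% of all symbols. The median of this list was 43.9 per kilobase. SLC16A1 (MCT1), which exports lactate, had a mean of 7809, while the hypoxia-induced exporter SLC16A3 (MCT4) was listed at 4.16.

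Phosphoglycerate mutase needs care. PGAM1 had a mean of 1385 and 769 per kilobase, and PGAM4 a mean of 1028 and 608 per kilobase. PGAM4 is a single-exon gene on chromosome X (chrX:77967949-77969638, minus strand) that arose as a copy of PGAM1, a gene of 4 exons on chromosome 10 (chr10:97426191-97433444, plus strand). The division of reads between them, 42.6% of the summed means to PGAM4, is uncertain. The sum of the step would be 1360 per kilobase with all of these reads placed under PGAM1 and 1449 with all under PGAM4. Both lie above glucose transport and below hexokinase on that scale. These sums only move reads already counted under PGAM1 or PGAM4. GENCODE annotates 13 pseudogenes named after PGAM1, none of them among the deposited symbols. Any reads lost to such copies would be missing from both sums.

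**Figure D3:**
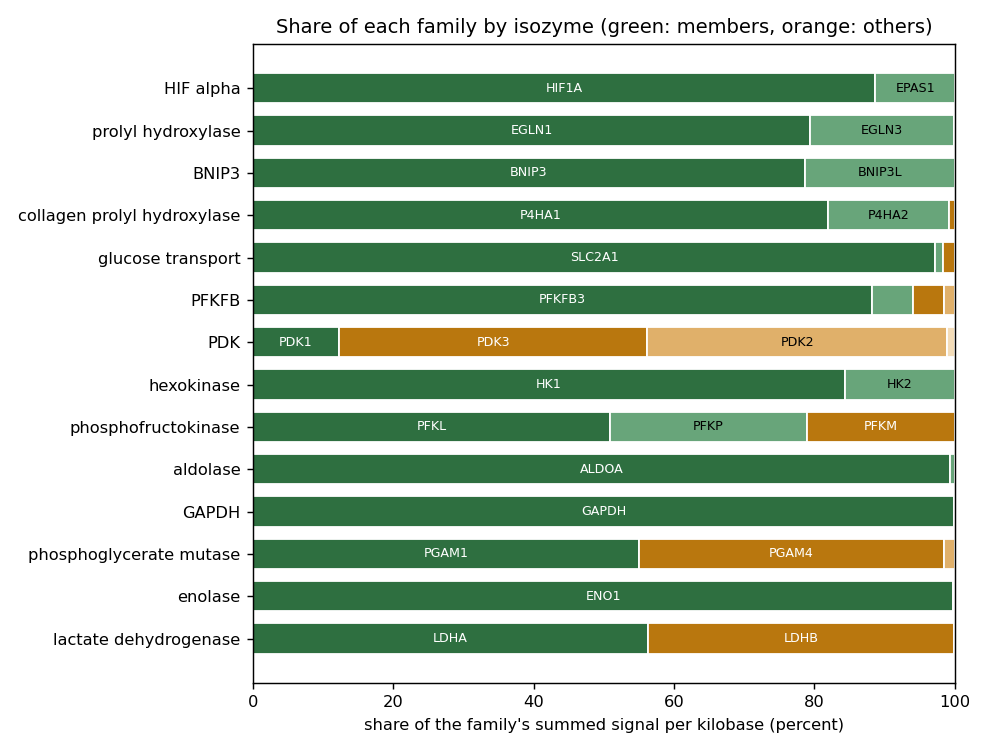
Share of each family's summed signal per kilobase of transcript (x axis, percent) held by each isozyme, with members in green and other isozymes in orange; the values are from 1 pooled mean per gene, so no error is shown. EGLN2 is shown without the readthrough gene RAB4B-EGLN2. HK1 held 84.3%, ALDOA 99.3% and ENO1 99.8% of their families, while LDHA held 56.3% and PDK1 12.2%.

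The promoters of the members were searched for the core of the hypoxia response element, ACGTG or GCGTG, on both strands. The RefSeq promoter table (GRCh38.p14) gives 250 bases before to 50 bases after a start site, and it held 33 of the 37 members. VEGFA, BNIP3L, NDRG1 and SLC2A3 were not matched. The core was found in 27 of the 33 windows (81.8%). It was found in 64.2% of the windows of 11174 symbols with a mean of at least 10 (the expressed symbols) and in 48.9% of all 27305 windows. ACGTG alone was present in 17 members (51.5%), in 26.5% of the expressed symbols and in 21.6% of all windows. In the 100 bases just before the start, the share was 33.3% in the members and 33.8% in the expressed symbols, and 24.6% in all windows. The members' windows also had a higher median G and C content, 70.7% against 66.3% of the expressed symbols and 59% of all windows, and both cores contain the dinucleotide CG. The part of base composition in these shares was not tested, and a match is a description of letters and not a bound site.

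The 250 bases before the start of 4 members with several matches, and with at most 3 exon bases of their own gene in the stretch, are shown as examples, 5′ to 3′ on the gene's strand (all plus), with each core on either strand in capitals. They come from RefSeq on GRCh38.p14 and lie at chr11:18394313-18394562 for LDHA, chrX:78103998-78104247 for PGK1, chr2:74833877-74834126 for HK2 and chr3:4979187-4979436 for BHLHE40.
LDHA: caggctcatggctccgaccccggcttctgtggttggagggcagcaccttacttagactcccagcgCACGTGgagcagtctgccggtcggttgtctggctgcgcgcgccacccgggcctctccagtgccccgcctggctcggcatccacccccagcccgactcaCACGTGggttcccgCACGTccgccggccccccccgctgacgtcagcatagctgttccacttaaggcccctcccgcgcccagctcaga
PGK1: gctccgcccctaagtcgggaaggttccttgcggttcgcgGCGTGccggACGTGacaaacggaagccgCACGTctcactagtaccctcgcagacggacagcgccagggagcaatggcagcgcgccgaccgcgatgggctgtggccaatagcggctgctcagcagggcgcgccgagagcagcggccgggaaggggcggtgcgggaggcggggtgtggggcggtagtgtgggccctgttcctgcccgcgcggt
HK2: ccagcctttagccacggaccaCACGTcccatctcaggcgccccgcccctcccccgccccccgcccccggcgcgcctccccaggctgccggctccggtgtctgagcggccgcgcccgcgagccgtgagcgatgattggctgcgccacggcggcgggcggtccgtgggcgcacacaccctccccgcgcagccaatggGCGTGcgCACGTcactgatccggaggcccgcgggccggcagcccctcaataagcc
BHLHE40: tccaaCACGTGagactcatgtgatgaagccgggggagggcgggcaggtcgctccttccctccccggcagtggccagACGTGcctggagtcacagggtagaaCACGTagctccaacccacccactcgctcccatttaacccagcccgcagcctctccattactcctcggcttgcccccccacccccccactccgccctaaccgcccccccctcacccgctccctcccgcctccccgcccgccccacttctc

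The LDHA stretch holds 5 matches, 4 of them in pairs at which the letters read ACGTG on both strands. The PGK1 stretch holds 3 matches between 211 and 183 bases before the start, the HK2 stretch 3, and the BHLHE40 stretch 4. Over the whole 300-base window BNIP3 and LDHA held 6 matches each, ALDOC 5, and PGK1 and BHLHE40 4 each. Of 56 matches in all members, 34 lay more than 100 bases before the start, 18 within the 100 bases before it, and 4 after it. The 6 members with no match were EGLN3, P4HA2, MXI1, PFKP, TPI1 and PGAM1. The start used lay 1627 bases from that of the MANE Select transcript for PGAM1, 762 for P4HA2 and 422 for PFKP, so for these the start of that transcript was not searched. Among members with a match, the distance was 747 bases for GAPDH, 217 for HK1 and 204 for GPI, and their matches belong to the start used. All 250 bases before the start used are exon bases of the same gene for GPI, ENO1, ENO2, P4HA2, TPI1, PGAM1 and PKM. For HK1 230 of them are. Of these members, GPI, ENO1, ENO2 and HK1 hold a match in that stretch. No relation between these matches and a response to any compound can be drawn here, since the values used hold no response.

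**Figure D4:**
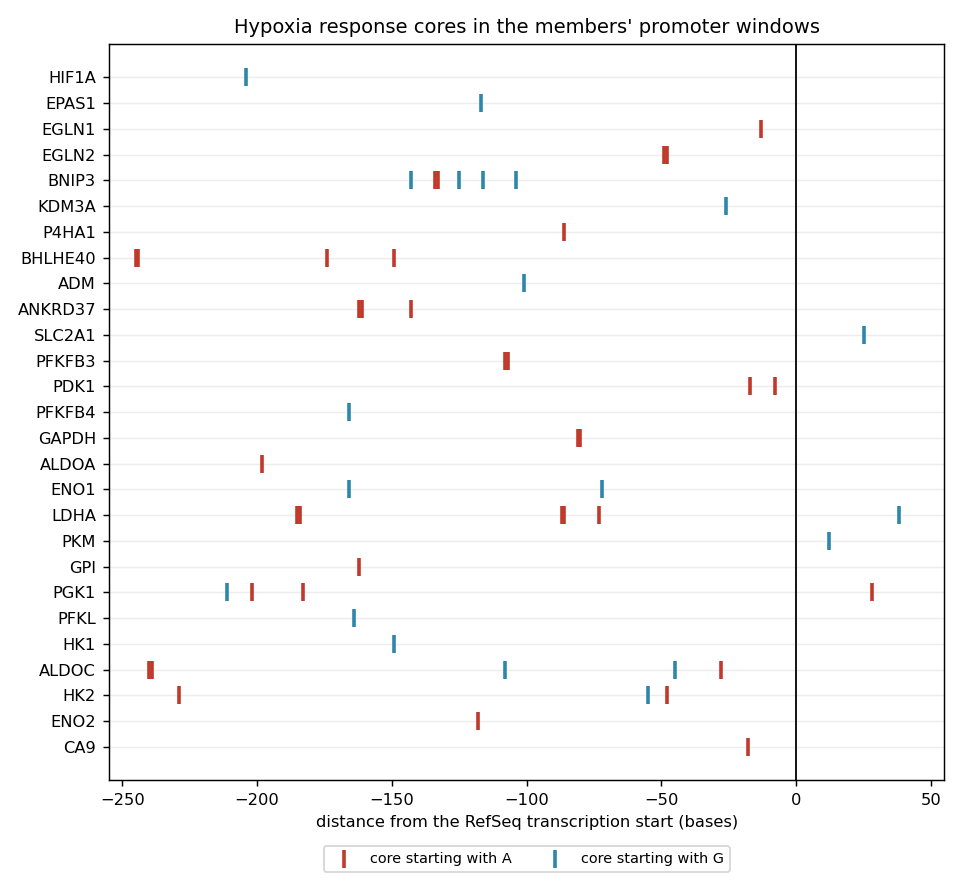
Position of each hypoxia response core (ticks) relative to the RefSeq start site (x axis, bases, start at 0) in the 27 members that held one, 1 member per line; red ticks are cores that start with A and blue ticks those that start with G. Of 56 matches 34 lie more than 100 bases before the start, and BNIP3 and LDHA hold 6 each.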

How the data were processed

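RNA from 12 HEK293T samples in 4 groups of 3 was sequenced by BGI. The labels describe stranded libraries of polyadenylated RNA, and the methods describe whole transcriptome RNA. The authors aligned reads with DNAstar SeqManPro to GRCh38.p7, quantified genes in ArrayStar with QSeq, and ran DESeq2 (1.40.1 in the submitters' processing notes, which name GRCh38 and GRCh37). The deposited signal of a gene is the mean over all 12 samples after the authors' scaling by DESeq2 size factors, and it was identical in the 3 tables. The same tables hold the authors' own fold changes, standard errors, test statistics and p-values for each compound against vehicle, which were not used, so no comparison between groups was made. No per-sample values, and so no depth per sample, SD or counting interval, were analysed here. The p-values that replicates would allow were not computed.

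Each mean was divided by the length of the MANE Select transcript (else the Ensembl canonical one, else the longest coding one) in GENCODE 44 on GRCh38, times 1000. A length was matched for 90% of symbols with a mean of at least 10 and for 77.2% of all symbols, so symbols were ranked per kilobase only above that minimum. The methods name RPKM as the quantity that the authors entered into DESeq2. The division by length assumes that the deposited means are not already per length; they sum to 36.6 M, with a median transcript length of 2958 bases, and the ratios without length are given as an alternative. Dates or numbers stood in place of 23 symbols, and 2 of the 64 genes of the 5 comparison lists were found under older symbols. Where RefSeq gives a gene several starts, the one nearest the start of the MANE Select or canonical transcript was used. Scripts used Python 3.11.15, pandas 2.3.3, numpy 2.4.6 and matplotlib 3.10.9 and were tested on simulated data. All 37 members are named; genes of the comparison lists are named where an isozyme's share needs them, where they complete a family or where they are highest in their list. PAX2, INS, ARNT, ELOB, JMJD6, VHL, EPO, SLC16A1, SLC16A3, RAB4B-EGLN2 and SLC2A14 are exceptions, picked once their values were known. The members and lists were chosen with earlier results of these data known. 1 gene that counts in its comparison list was left out of the step sums and is not reported here.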

Additional observations from a re-analysis of the deposited data

How the results depend on the processing

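No value per sample was used, so leaving out replicates was not run. No paired analysis was possible because the values used are means over all samples. The members' 1.36% share of signal became 1.54% without mitochondrially encoded genes and 0.313% without the top 1% of symbols, which include 6 members. Their median percentile, 79.9 among all symbols, was 71.8 among symbols with a mean of at least 10, 71.3 among symbols with a coding sequence and 67.0 per kilobase. The count of 27 promoters with a core was 17 for ACGTG alone and 11 within 100 bases before the start; it was 25 with the first start listed, an alternative chosen after seeing the data. None of the 11 isozyme ratios reversed under coding length, longest transcript or no length. The ratio of EGLN1 to EGLN2, 494 per kilobase, reversed to 0.368 with RAB4B-EGLN2 in place of EGLN2, an alternative also chosen after seeing the data. RAB4B-EGLN2 also has exon sequence outside EGLN2, so 0.368 is not a ratio to EGLN2 alone. With coding length EGLN1 to EGLN2 was 975, HK1 to HK2 was 3.44, P4HA1 to P4HA2 was 2.87 and BNIP3 to BNIP3L was 1.85. With the longest transcript BNIP3 to BNIP3L was 1.85. With no length EGLN1 to EGLN2 was 1020.1, EGLN1 to EGLN3 was 6.22, HK1 to HK2 was 3.44, P4HA1 to P4HA2 was 2.87 and BNIP3 to BNIP3L was 1.64. Identity between member proteins was planned and not run. The precision of means near 1, such as that of EGLN2, is unknown.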

Other observations

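In 8 of the 33 promoter windows, those of EGLN2, BNIP3, ANKRD37, BHLHE40, PFKFB3, ALDOC, GAPDH and LDHA, the letters of the core on each strand overlap to form the palindrome CACGTG. It was present in 24.2% of the members' windows, in 10.1% of those of symbols with a mean of at least 10 and in 7.42% of all windows. The same letters are known as the E-box, which factors of the basic helix-loop-helix family bind, among them MAX, the partner of MXI1, and BHLHE40. The GAPDH window lies at a start 747 bases from that of its MANE Select transcript. This word was chosen after the matches were seen, and each such site counts as 2 matches above.

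GAPDH, TPI1 and ENO2 lie in the same direction within 389 kb of chromosome 12 (chr12:6534512-6923698, GRCh38, GENCODE 44). Within this stretch GAPDH stood 1805-fold above ENO2 and 5.66-fold above TPI1 in signal per kilobase. With no length the gap to ENO2 was smaller, the means being 127099 for GAPDH, 126 for ENO2 and 23593 for TPI1. Chromosome 10 carried 7 of the 37 members, the others being spread so that 18 chromosomes held at least 1.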
